A study of Homo sapiens with 6 samples.

Results

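The 10 genes described here belong to the Notch pathway, namely the ligands JAG1, JAG2 and DLL1, the receptors NOTCH1, NOTCH2 and NOTCH3, the nuclear proteins RBPJ and MAML1, and the target genes HES1 and HEY1. They were found by gene name among the 58825 genes of the deposited table, where each name had 1 identifier. RNA-seq was performed on PANC-1, a line of human carcinoma cells from the pancreatic duct. In all, 3 samples were treated with 40 μM maslinic acid (MA), a triterpenoid of olives, for 24 h (MA PANC-1 1 to 3), and 3 were left untreated, at 0 μM (PANC-1 1 to 3). The study calls them biological replicates of this cell line. Its general culture methods name DMSO as the control of MA, while the labels call the 0 μM samples untreated. Each sample held from 56978375 to 70275355 estimated counts in total.

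Notch receptors are held at the cell surface and bind ligands on a neighbouring cell. Binding lets ADAM proteases and then the gamma-secretase complex cut the receptor, and the freed intracellular domain enters the nucleus, where it joins the DNA-binding protein RBPJ and a MAML coactivator and switches on repressors of the HES and HEY families. In the pancreas the pathway holds progenitor cells back from differentiation during development, and it is switched on again in ductal carcinoma.

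Markers of the labelled cell type were checked before the pathway. The keratin genes KRT8 and KRT18 lay between 141 and 338 FPKM (fragments per kilobase of transcript, scaled to the size of the library, so that levels can be compared between genes), and the mesenchymal filament gene VIM between 521 and 754 FPKM. The epithelial markers KRT19 and EPCAM had no value above 0.132 FPKM. Markers of acinar, endocrine and endothelial cells, 13 in all, each had a mean below 0.1 FPKM. Of the 5 immune markers CD68, a lysosomal protein gene, was the only one above that level, and of the 5 fibroblast markers COL1A1 was the most abundant, at 2.64 to 5.96 FPKM. None of those among the 31 markers that were high enough to be tested had an unadjusted p-value under 0.05 between the groups in edgeR's quasi-likelihood test. After removal of the GC trend 4 of them did, all with a lower mean after MA, namely KRT7 (log2 fold change −0.46), KRT8 (−0.31), KRT18 (−0.22) and VIM (−0.25), and their relation to the Notch genes was not tested.

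MA treated PANC-1 cells carried less mRNA of JAG1, the most abundant of the 10 genes, than PANC-1 cells did. In the other 9 genes the difference between the group means stayed within a factor of 1.24 either way, and in 8 of them the values of the groups overlapped. Among the 17774 genes tested, edgeR's quasi-likelihood test gave JAG1 the 16th smallest p-value, but its Benjamini-Hochberg adjusted p-value across those genes (0.0895) missed the threshold of 0.05. None of the 10 genes passed that threshold, which 0.0394% of all genes tested did (0.0225% higher and 0.0169% lower after MA), and limma passed none either. DESeq2 passed JAG1. By the study's rule for differentially expressed genes (DEGs), a ratio of 2 or more, or of 0.5 or less, with an unadjusted p-value under 0.05, there were 0 DEGs among the 10, against 1.92% of all genes (0.675% higher and 1.25% lower). An unadjusted p-value under 0.05 was reached by JAG1 alone, 10.0% of the 10 genes against 11.2% of all genes tested (5.37% higher and 5.86% lower). The groups did not overlap in JAG1 and MAML1, 20.0% of the 10 against a background of 19.9% (8.79% higher and 11.1% lower). These shares lay near the background, so as a set the 10 genes did not stand out. JAG1 was itself reported as a DEG by the study from these samples, so its rank is no independent evidence. The study also measured JAG1 by qRT-PCR and described a trend similar to its RNA-seq.

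**Figure D1:**
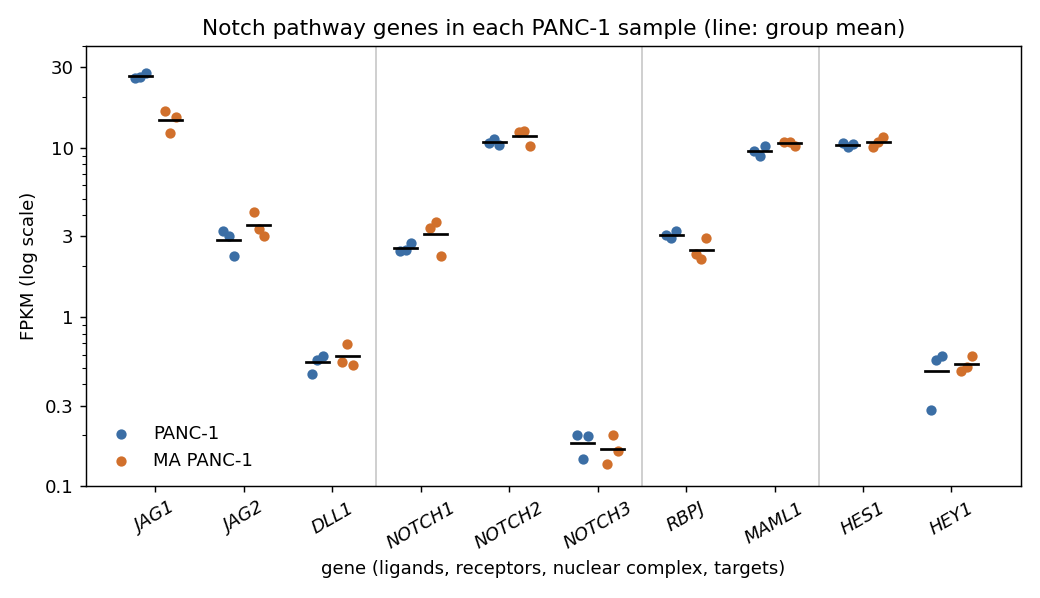
FPKM of the 10 Notch pathway genes on a log axis, with a point for each of the 3 PANC-1 and 3 MA PANC-1 samples and a line at each group mean. JAG1 is the gene in which the 3 MA PANC-1 points, at 12.3 to 16.5 FPKM, lie well below the 3 PANC-1 points, at 26.0 to 27.7 FPKM.

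The ligands come first. JAG1 (ENSG00000101384, chromosome 20, 10637684 to 10673999 on the minus strand, GRCh38) encodes Jagged1, a membrane-bound ligand of all Notch receptors. It was at 26.0, 26.2 and 27.7 FPKM in PANC-1 1, 2 and 3, while the values of MA PANC-1 1, 2 and 3 were 16.5, 12.3 and 15.3 FPKM. The untreated samples were tightly grouped, the treated samples were all lower, and MA PANC-1 2 was the lowest of them. The mean was 26.6 ± 0.950 FPKM (SD, n = 3) without MA and 14.7 ± 2.18 FPKM (SD, n = 3) with MA, or 55.1% of the untreated level. The log2 fold change was −0.83 (standard error 0.10, 95% interval −1.07 to −0.58, unadjusted p = 8.06e-05 from edgeR), and the exact two-sided permutation test over the 6 samples gave p = 0.1, the smallest that 3 samples against 3 allow. Behind these values stood estimated counts of 8732 to 10396 in the treated and 18240 to 20270 in the untreated samples. The difference was as large after each library's GC trend was removed, at −0.86 on the log2 scale with an adjusted p of 0.0420. That removal with the replicate number as a block gave −0.87 with an adjusted p of 0.208 from edgeR. Without MA PANC-1 2, and with neither change, the difference was −0.75 with an adjusted p of 0.0492 from edgeR. Leaving out any other sample gave an adjusted p between 0.134 and 0.377.

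The window around the JAG1 start site is shown because JAG1 is the gene that differed (RefSeq, GRCh38.p14, chr20:10673950-10674249, minus strand, 250 bases before to 50 after the start). Capitals mark CACGNG, a class of site bound by HES repressors, searched on both strands.
JAG1: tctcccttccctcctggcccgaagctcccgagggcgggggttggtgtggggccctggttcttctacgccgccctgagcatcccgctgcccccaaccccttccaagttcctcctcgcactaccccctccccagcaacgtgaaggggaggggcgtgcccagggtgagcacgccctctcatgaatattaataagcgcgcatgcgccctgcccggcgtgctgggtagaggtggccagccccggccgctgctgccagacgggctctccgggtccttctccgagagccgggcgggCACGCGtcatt
The letters CACGNG occur in 30.5% of the 35116 promoter windows of this length, and TGGGAA, the core that RBPJ binds, does not occur in this window.

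JAG2 (ENSG00000184916, chromosome 14, 105140982 to 105168824) encodes the closest relative of Jagged1. It was at 3.22, 3.03 and 2.29 FPKM in the PANC-1 samples and at 4.20, 3.33 and 3.02 FPKM in the MA PANC-1 samples. Its mean was the higher after MA, opposite to JAG1, but the groups overlapped, and the log2 fold change of 0.34 (standard error 0.18, 95% interval −0.09 to 0.77) did not pass the test. DLL1 (ENSG00000198719, chromosome 6, 170282206 to 170306565), the ligand of the Delta type, stood at 0.464 to 0.593 FPKM without and 0.525 to 0.693 FPKM with MA. Its log2 fold change of 0.16 (standard error 0.24) was −0.02 without MA PANC-1 2. DLL1 overlaps FAM120B on the opposite strand, a gene at 5.26 to 6.73 FPKM, and whether the counting used the strand is not given in the sources used here.

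Among JAG1, JAG2, DLL1 and DLL4, ligands that activate receptors on a neighbouring cell, JAG1 made up most of the mRNA in FPKM. Their sum was 30.1, 30.2 and 31.0 FPKM in the PANC-1 samples against 21.8, 16.8 and 19.2 FPKM in the MA PANC-1 samples. The share of JAG1 in that sum was 87.4% ± 1.64 (SD, n = 3) without MA and 76.1% ± 3.35 (SD, n = 3) with MA. The share of JAG2 was 9.37% ± 1.74 and 18.3% ± 2.18 (SD, n = 3 each), in the same order. In all 3 quantities the groups did not overlap (exact two-sided permutation test, p = 0.1 each, the smallest possible). They follow in large part from the JAG1 level itself and add no separate test. DLL3, a family member that acts within its own cell and does not activate Notch on neighbours, was at 19.6 to 21.2 FPKM without and 20.6 to 22.9 FPKM with MA, and was named after its values were seen. DNER, described below, also lay outside that sum, at 33.9 to 37.5 FPKM without and 23.4 to 27.0 FPKM with MA. It exceeded JAG1 in every sample.

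**Figure D2:**
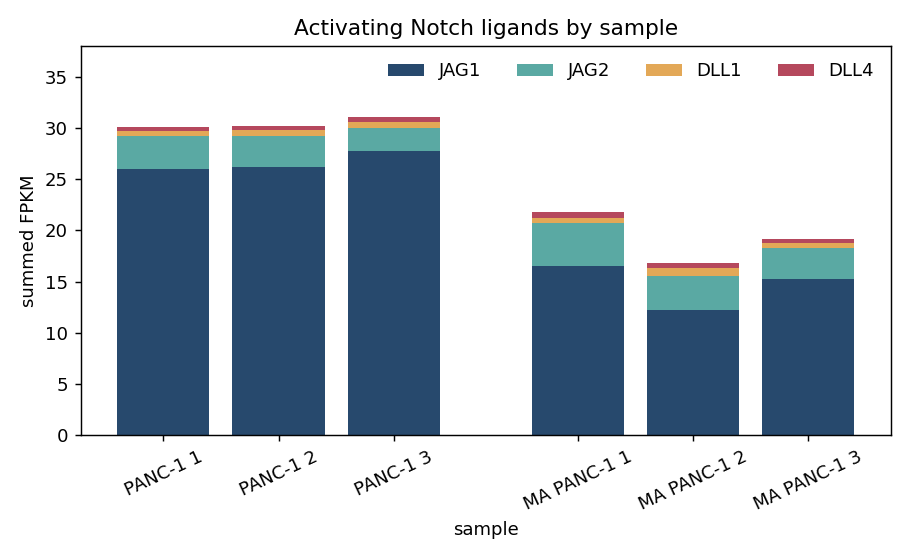
Stacked FPKM of JAG1, JAG2, DLL1 and DLL4 in each of the 6 samples, bars starting at 0. The summed level runs from 30.1 to 31.0 FPKM without MA and from 16.8 to 21.8 FPKM with it, and the gap is in the JAG1 segment.

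NOTCH2 was the most abundant receptor in both groups. NOTCH2 (ENSG00000134250, chromosome 1, 119911553 to 120069662) was at 10.7, 11.2 and 10.4 FPKM in PANC-1 and at 12.4, 12.5 and 10.3 FPKM in MA PANC-1 cells. Treated samples 1 and 2 were the highest of the 6, while MA PANC-1 3 lay just under the untreated range, and the log2 fold change was 0.16 (standard error 0.12, 95% interval −0.11 to 0.43). NOTCH2NLA, a truncated and nearly identical copy of NOTCH2, was at 2.88 to 3.25 FPKM in the treated samples and at 3.85, 0.290 and 3.24 FPKM in PANC-1 1, 2 and 3, and how reads were divided between them is not given in the sources used here.

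NOTCH1 (ENSG00000148400, chromosome 9, 136494433 to 136546048) had the same order among the treated samples as NOTCH2, at a lower level. Its values were 2.45, 2.49 and 2.73 FPKM without MA and 3.37, 3.63 and 2.29 FPKM with MA. MA PANC-1 3 was again the lowest of all 6 samples, and the log2 fold change of 0.32 (standard error 0.20, 95% interval −0.14 to 0.78) did not pass the test. Without MA PANC-1 2 it was 0.15, and with the GC trend removed it was 0.16. Without MA PANC-1 3 it was 0.51 (unadjusted p = 0.00469, adjusted p = 0.19 from edgeR). NOTCH3 (ENSG00000074181, chromosome 19, 15159038 to 15200995) was the least abundant of the 10 genes, at 0.145 to 0.200 FPKM without and 0.135 to 0.202 FPKM with MA, from 87 to 159 estimated counts. Its log2 fold change of −0.08 had a 95% interval of −0.74 to 0.58, so a change of up to about that size was not detectable here. NOTCH4, taken from the wider list below, was at 0.508 to 0.587 FPKM without and 0.279 to 0.462 FPKM with MA, with no overlap (log2 fold change −0.41, unadjusted p = 0.145 from edgeR). With the GC trend removed it was −0.55 with an unadjusted p of 0.0269.

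NOTCH2 took 76.6% ± 1.33 (SD, n = 3) of the summed FPKM of the 4 receptors without MA and 76.4% ± 2.38 with MA, and NOTCH1 took 18.2% ± 1.34 and 19.9% ± 2.12. The groups overlapped in both shares. The share of NOTCH4 was 3.86% ± 0.193 without and 2.54% ± 0.345 with MA (SD, n = 3 each), with no overlap (exact two-sided permutation test, p = 0.1, the smallest possible). The ratio of JAG1 to NOTCH2, both in FPKM, was 2.43, 2.33 and 2.67 in the PANC-1 samples and 1.34, 0.981 and 1.48 in the MA PANC-1 samples, with no overlap (exact permutation p = 0.1, the smallest possible). This ratio follows in large part from the JAG1 level and adds no separate test.

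RBPJ, the DNA-binding protein that turns from repressor to activator when the Notch intracellular domain binds it, did not pass the test. RBPJ (ENSG00000168214, chromosome 4, 26163455 to 26435131) was at 3.07, 2.93 and 3.22 FPKM without MA and at 2.37, 2.20 and 2.93 FPKM with MA. MA PANC-1 3 lay just inside the untreated range, and the log2 fold change was −0.26 (standard error 0.12, 95% interval −0.55 to 0.03, unadjusted p = 0.0705 from edgeR). After each library's GC trend was removed it was −0.04. MAML1 (ENSG00000161021, chromosome 5, 179732822 to 179777283), a coactivator that docks on the complex of RBPJ and Notch, was at 9.57, 9.01 and 10.2 FPKM without and at 10.8, 10.8 and 10.3 FPKM with MA. The highest untreated value, 10.22, lay just below the lowest treated value, 10.26. With an adjusted p of 0.501 from edgeR, its log2 fold change of 0.19 (standard error 0.10) did not pass the test.

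HES1 and HEY1 are the target genes among the 10, and their groups overlapped. HES1 (ENSG00000114315, chromosome 3, 194136148 to 194138732) encodes a repressor of the basic helix-loop-helix type and was at 10.7, 10.1 and 10.5 FPKM in the PANC-1 samples and at 10.1, 10.9 and 11.6 FPKM in the MA PANC-1 samples. The log2 fold change of 0.10 (standard error 0.11) had a 95% interval of −0.17 to 0.36. That interval does not reach the size of the difference in JAG1 in either direction. HEY1 (ENSG00000164683), a related repressor, was at 0.283, 0.559 and 0.592 FPKM without and at 0.480, 0.508 and 0.591 FPKM with MA. PANC-1 1 stood lower than the other 5 samples, and without it the log2 fold change of 0.17 (standard error 0.32) was −0.09. Its 95% interval of −0.59 to 0.93 was wide enough to hold a difference of the size seen in JAG1 toward a higher level.

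The start-site windows of HES1 (chr3:194135898-194136197, plus strand) and HES4 (chr1:1000048-1000347, minus strand), another repressor of the HES family, are shown (RefSeq, GRCh38.p14). They were chosen because both hold the core letters bound by RBPJ while neither gene passed the test for a difference between the groups. Capitals mark TGGGAA, searched on both strands.
HES1: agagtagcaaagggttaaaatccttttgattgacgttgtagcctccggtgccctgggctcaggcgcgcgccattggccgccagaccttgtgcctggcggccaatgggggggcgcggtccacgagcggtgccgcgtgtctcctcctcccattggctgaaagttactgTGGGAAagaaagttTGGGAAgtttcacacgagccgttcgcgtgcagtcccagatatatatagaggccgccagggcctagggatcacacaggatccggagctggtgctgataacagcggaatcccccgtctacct
HES4: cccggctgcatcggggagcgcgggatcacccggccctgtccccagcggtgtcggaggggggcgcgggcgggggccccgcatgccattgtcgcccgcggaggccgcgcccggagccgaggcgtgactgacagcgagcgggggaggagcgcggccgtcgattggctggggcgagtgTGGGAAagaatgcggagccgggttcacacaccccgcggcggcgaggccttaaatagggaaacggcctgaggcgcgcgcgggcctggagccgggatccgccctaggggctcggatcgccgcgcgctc
The HES1 window held 2 copies, starting 84 and 70 bases before the start site, and the HES4 window held 1, starting 76 bases before it. TGGGAA occurs in 24.0% of the 35116 windows, and the longer GTGGGAA, which both windows hold and which overlaps it, in 6.25%. Among the 10 genes, 8 had a window, and HES1 and RBPJ were those with GTGGGAA. Of the 14 target genes in the wider list below, 10 had a window, and 5 held GTGGGAA (HES1, HES4, HES5, HEY2 and HEYL). HES4 was at 13.9 to 17.5 FPKM without and 15.2 to 17.4 FPKM with MA (log2 fold change 0.16, standard error 0.14).

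By level, the order of the 10 genes was led by JAG1, NOTCH2, HES1 and MAML1 in both groups. In PANC-1 cells JAG1, at a mean of 26.6 FPKM, lay clear of NOTCH2, at 10.8 FPKM, whereas in MA PANC-1 cells the values of JAG1 (mean 14.7 FPKM) and NOTCH2 (11.7 FPKM) overlapped. JAG1 stayed above HES1 and MAML1 in every sample of either group. The values of HES1 overlapped those of NOTCH2 and of MAML1 in both groups, while NOTCH2 lay wholly above MAML1 in PANC-1 cells alone. They were followed, after a gap, by RBPJ, JAG2 and NOTCH1 between 2.20 and 4.20 FPKM. Neighbours in that order overlapped, but RBPJ lay wholly above NOTCH1 in PANC-1 cells, and JAG2 wholly above RBPJ in MA PANC-1 cells. DLL1 and HEY1 overlapped near 0.5 FPKM, and NOTCH3 was the lowest in both groups, below HEY1 in every sample of the same group.

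**Figure D3:**
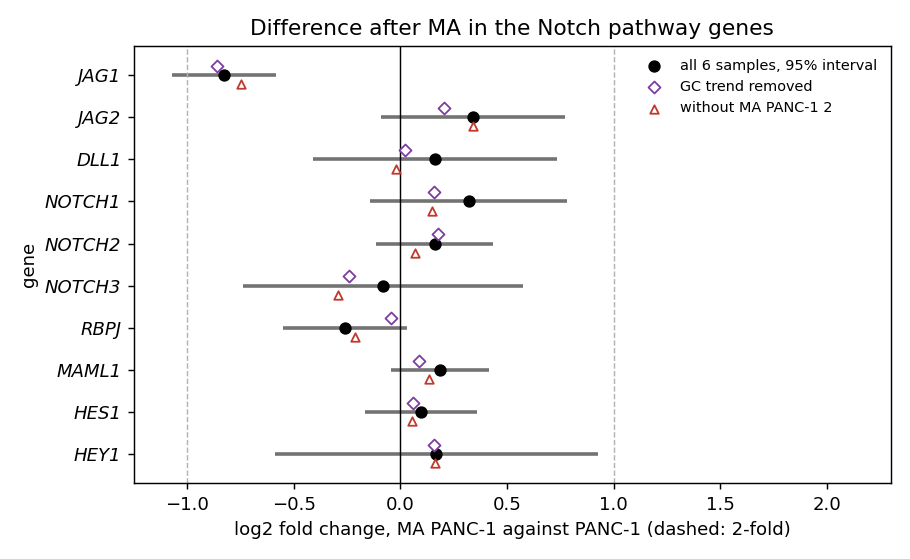
Log2 fold change of the 10 genes, MA PANC-1 against PANC-1, with the 95% interval from edgeR (points and bars), the value after each library's GC trend was removed (diamonds) and the value without MA PANC-1 2 (triangles). The interval of JAG1, −1.07 to −0.58, lies apart from 0, and those of the other 9 genes include it.

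The library MA PANC-1 2 differed from the others in base composition. Weighting each gene's GC content by its count gave 51.8% for MA PANC-1 2 and a range of 50.4% to 50.9% for the other 5 libraries. Several of the 10 genes are rich or poor in GC. JAG2 and NOTCH1, both with a higher mean after MA, have transcripts of 64.1% and 63.7% GC, and RBPJ, with a lower mean, has 40.8%. With the GC trend removed, JAG2 moved from 0.34 to 0.20 on the log2 scale, MAML1 from 0.19 to 0.09 and DLL1 from 0.16 to 0.02, while NOTCH3, of 63.1% GC, moved from −0.08 to −0.24. JAG1, of 50.6% GC, kept its difference. The part of base composition in these differences was not tested further.

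**Figure D4:**
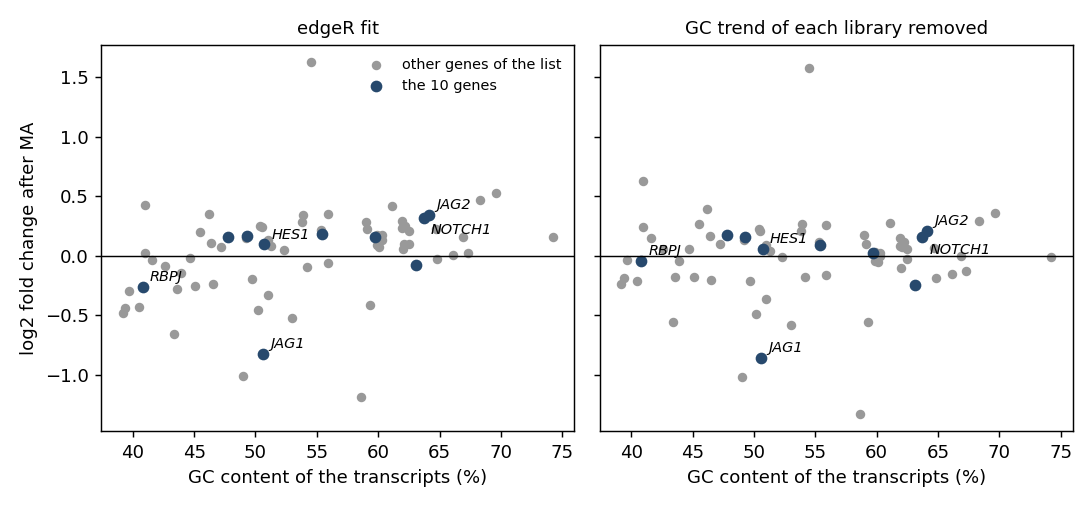
Log2 fold change after MA against the GC content of the transcripts for the 71 tested genes of the wider Notch pathway list, in the edgeR fit (left) and after each library's GC trend was removed (right), the 10 genes in dark blue. RBPJ moves from −0.26 to −0.04 and NOTCH1 from 0.32 to 0.16, while JAG1 stays at −0.83 and −0.86.

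A wider list of 79 Notch pathway genes, ordered by role and including the 10, was compared in the same fit. Of these, 71 were expressed highly enough to be tested. None passed the adjusted threshold in edgeR, while 16 had an unadjusted p-value under 0.05, 6 higher and 10 lower after MA, which is 22.5% of those tested against 11.2% of all genes. The DEG rule was met by 3 of the 71 (CCN3, CDKN1A and DTX4), against 1.92% of all genes. DESeq2 passed 4 at an adjusted p under 0.05 (JAG1, DNER, DTX4 and CDKN1A), as it did 1.80% of all genes to which it gave an adjusted p, and limma passed none. The count of 16 was 10 (14.1%) without MA PANC-1 1, 10 (14.1%) without PANC-1 1, 8 (11.3%) without PANC-1 3 and 24 (33.8%) without MA PANC-1 3, where the shares of all genes were 7.93%, 6.63%, 6.76% and 18.1%. With the GC trend removed it was 20 (28.2%), 6 higher and 14 lower after MA, where the share of all genes was 14.0%. The groups did not overlap in 25 genes, 10 higher and 15 lower, or 35.2% against 19.9%. The median log2 fold change was 0.10 over the list and −0.00 over all genes tested, and the median GC content was 53.9% and 49.4%. Among the genes the deposited annotation assigns to Notch signaling, 18 of 91 tested in GO and 8 of 42 tested in KEGG had an unadjusted p-value under 0.05, and both lists share genes with the 79.

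The ligand group held 3 genes at an unadjusted p-value under 0.05, all lower, of 8 tested, against 5.86% of all genes that were lower at that threshold. Besides JAG1 these were DNER and CCN3. DNER, a membrane protein with EGF repeats reported to bind Notch, was at 34.9, 33.9 and 37.5 FPKM without and at 25.2, 23.4 and 27.0 FPKM with MA. All treated samples lay below all untreated ones (log2 fold change −0.46, standard error 0.08, adjusted p = 0.222 from edgeR). CCN3, a secreted matricellular protein that can associate with Notch, was at 0.353 to 0.426 FPKM without and 0.145 to 0.244 FPKM with MA. At this low level it met the DEG rule with a log2 fold change of −1.01 (standard error 0.34), and edgeR gave it an adjusted p of 0.426. CCN3 no longer met the rule without MA PANC-1 2 (−0.96), MA PANC-1 3 (−0.85) or PANC-1 1 (−0.93), the latter pair also with an unadjusted p above 0.05.

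Of the 9 genes that cleave the receptor, 3 had an unadjusted p-value under 0.05, or 33.3% against 11.2% of all genes, 2 of them higher and 1 lower after MA. PSENEN, a small subunit of gamma-secretase, was at 43.0 to 46.4 FPKM without and 54.8 to 57.3 FPKM with MA, with no overlap (log2 fold change 0.34, standard error 0.09, adjusted p = 0.388 from edgeR). PSEN2, a catalytic subunit of the same complex, had a log2 fold change of 0.35 that was 0.26 with the GC trend removed, and its unadjusted p stayed under 0.05 in 4 of 18 alternatives. ADAM10, the protease that makes the cut outside the membrane, was at 5.90 to 7.15 FPKM without and 3.65 to 5.69 FPKM with MA. Its log2 fold change was −0.43 (unadjusted p = 0.0225 from edgeR, GC content 40.5%). With the GC trend removed it was −0.21 (unadjusted p = 0.0185 from edgeR), and the unadjusted p stayed under 0.05 in 16 of 18 alternatives.

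Among the ubiquitin ligases that drive ligand endocytosis, 2 of 3 tested had an unadjusted p-value under 0.05, in opposite directions, against 11.2% of all genes. MIB1 had a log2 fold change of −0.44 (standard error 0.18, unadjusted p = 0.0455 from edgeR) and MIB2 of 0.46 (standard error 0.17, unadjusted p = 0.0272). Their transcripts hold 39.4% and 68.3% GC, and with the GC trend removed the values were −0.19 and 0.29 (unadjusted p = 0.0461 and 0.0260 from edgeR). The unadjusted p stayed under 0.05 in 9 of 18 alternatives for MIB1 and in 15 of 18 for MIB2. NEURL1B, the third one tested, had a log2 fold change of 0.10 with a standard error of 0.86. The 6 sugar transferases that modify the receptor had no gene with an unadjusted p-value under 0.05 in the edgeR fit of all 6 samples without GC correction, with POFUT1 at 61.3 to 63.5 FPKM without and 63.6 to 69.6 FPKM with MA, and LFNG at a log2 fold change of 0.42 (standard error 0.20). EOGT, another of them and named after its values were seen, had one of 0.43 (unadjusted p = 0.103), which was 0.62 without MA PANC-1 2 (unadjusted p = 0.0130) and also 0.62 with the GC trend removed (unadjusted p = 0.0114).

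Among 7 tested genes of receptor turnover, DTX4, a ubiquitin ligase of the Deltex family, met the DEG rule, which 0.675% of all genes did with a higher level after MA. It was at 0.0969, 0.167 and 0.158 FPKM without and at 0.348, 0.243 and 0.692 FPKM with MA. Its log2 fold change was 1.62 with a standard error of 0.42 and an adjusted p of 0.388 from edgeR. The groups did not overlap, but all values were low. ITCH, the most abundant gene of this role and also a ubiquitin ligase, was at 7.64 to 11.8 FPKM without and 9.08 to 12.2 FPKM with MA.

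Of the 8 tested coactivator and DNA-binding genes 1 had an unadjusted p-value under 0.05, a share of 12.5% that lay near the 11.2% of all genes. This was SNW1, a protein that joins the RBPJ complex, with a log2 fold change of −0.25 (standard error 0.10, unadjusted p = 0.0319 from edgeR), which stayed under 0.05 in 13 of 18 alternatives. KAT2A, a histone acetyltransferase and the most abundant of them, had one of 0.29 (standard error 0.13, unadjusted p = 0.0612). MAML3 and MAML2, relatives of MAML1 named after their values were seen, were scarce. MAML3 was at 0.427 to 0.449 FPKM without and 0.218 to 0.421 FPKM with MA, with no overlap (log2 fold change −0.52, standard error 0.28, adjusted p = 0.501 from edgeR). MAML2 was too low to be tested, with 47, 44 and 37 estimated counts without and 0, 19 and 0 with MA. Of 13 corepressor genes, 3 had an unadjusted p-value under 0.05, or 23.1% against 11.2% of all genes. The groups did not overlap in 6 of the 13, 2 higher and 4 lower after MA, or 46.2% against 19.9% of all genes. HDAC1 and HDAC2, related histone deacetylases, had log2 fold changes of 0.25 and −0.29, and that of HDAC2 was −0.03 with the GC trend removed. For each of them the unadjusted p stayed under 0.05 in 14 of 18 alternatives. CTBP1, the other of the 3, had one of 0.29 that was 0.15 with the GC trend removed, and its unadjusted p stayed under 0.05 in 4 of 18 alternatives. CIR1, a corepressor that binds RBPJ and was named after its values were seen, had a log2 fold change of −0.48 (standard error 0.26, unadjusted p = 0.107 from edgeR), or −0.24 with the GC trend removed. SPEN and NCOR1, also named after their values were seen, were at −0.19 and −0.24 with no overlap (unadjusted p = 0.083 and 0.0508 from edgeR). With the GC trend removed they were at −0.21 and −0.20 (unadjusted p = 0.0195 and 0.0307 from edgeR).

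Of the 13 tested target genes, 3 had an unadjusted p-value under 0.05, all lower after MA, against the 5.86% of all genes that were, and none was of the HES or HEY family. CDKN1A, a cyclin-dependent kinase inhibitor that many other signals also induce and that the study itself reported from these samples, was at 57.7 to 70.1 FPKM without and 21.3 to 35.0 FPKM with MA (log2 fold change −1.18, standard error 0.21, adjusted p = 0.216 from edgeR). Without MA PANC-1 3 it was −0.999, just short of the DEG rule. With the GC trend removed it was −1.32 (unadjusted p = 4.56e-05 from edgeR). In that setting CDKN1A passed the adjusted threshold, as 0.191% of all genes did. The study also measured CDKN1A by qRT-PCR and described a trend similar to its RNA-seq. SOX9, a transcription factor of ductal cells, was at 16.6 to 18.2 FPKM without and 12.6 to 14.5 FPKM with MA (log2 fold change −0.32, standard error 0.09, adjusted p = 0.388 from edgeR). SNAI2, a repressor tied to the mesenchymal state, had a log2 fold change of −0.66 (unadjusted p = 0.0496) that was −0.48 without MA PANC-1 2, and its unadjusted p stayed under 0.05 in 13 of 17 alternatives. CCND1, the most abundant target, was at 102 to 105 FPKM without and 93.0 to 99.3 FPKM with MA. NRARP, a feedback inhibitor that Notch induces in many cells and that was named after its values were seen, was at 4.54 to 6.05 FPKM without and 4.72 to 5.61 FPKM with MA, and HES5 was listed without reads in all 6 samples.

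**Figure D5:**
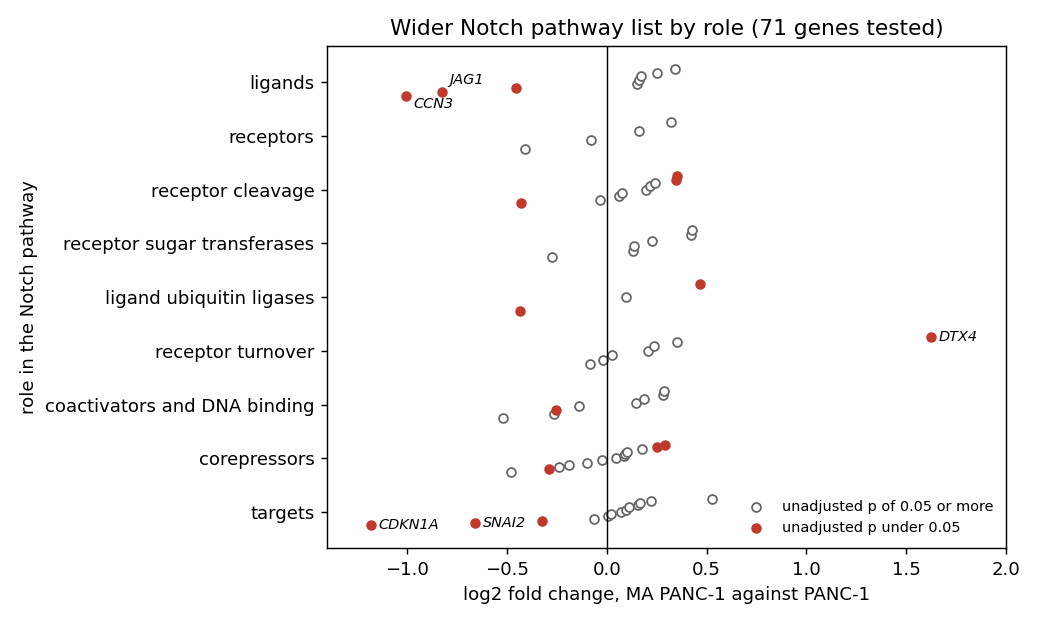
Log2 fold change after MA of the 71 tested genes of the wider Notch pathway list by role, with genes at an unadjusted p-value under 0.05 in red. The 3 red ligands (CCN3, JAG1 and DNER) and the 3 red targets (CDKN1A, SNAI2 and SOX9) lie left of 0, and DTX4 lies farthest right at 1.62.

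Genes outside the list were ranked by how closely their sample pattern followed that of JAG1, as the mean absolute difference of log2(FPKM + 0.1) values centred on each gene's own mean, over the 6 samples and 11412 genes with a mean of at least 1 FPKM. The closest was NFE2L3, a transcription factor of the cap'n'collar family, with a mean difference of 0.0583, at 45.4, 43.1 and 44.4 FPKM without and 28.6, 20.2 and 28.0 FPKM with MA. TLR6 followed at 0.0660 and DST at 0.0716, and in all of them MA PANC-1 2 was the lowest sample, as in JAG1. For HES1 the closest were ZXDC at 0.0163, NAF1 at 0.0260 and TMEM223 at 0.0274. The closeness was not tested.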

How the data were processed

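Poly(A) RNA of the 6 PANC-1 samples was sequenced in pairs. The authors deposited an FPKM value per gene and sample, normalized for length and depth (0.0001 where there were no reads), and beside it an estimated count in whole numbers, which was not normalized. The submitters' processing notes name cutadapt 1.9, HISAT2 2.0.4 and StringTie 1.3.4d without their roles. Positions are on GRCh38 (58552 of 58825 identifiers were in GENCODE 29). Summed counts exceed the reads that the study lists, so precision rests on the spread between replicates.

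The 17774 genes averaging at least 0.1 FPKM were tested with edgeR 4.0.16 (quasi-likelihood, TMM, R 4.3.3), adjusting p-values over all of them by the Benjamini-Hochberg method. The standard error was the log2 fold change over the square root of F. The fit was checked on simulated data. The 10 genes and the lists were chosen with earlier results of these data known. Named were the 10 genes and, from the wider list, genes past the adjusted or DEG threshold and, in each role, the most abundant gene and the gene with the smallest p. PSEN2, ADAM10, CTBP1, SOX9 and SNAI2 were added to complete counts of 3, and DLL3, HES4, HES5, NRARP, MAML2, MAML3, CIR1, SPEN, NCOR1, EOGT and NEURL1B after their values were seen. For JAG1 and HES1 the 3 closest patterns were named.

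Alternatives were DESeq2 1.42.0, limma 3.58.1 on log2(FPKM + 0.1, 1 or 0.01), a minimum of 1 FPKM or none, upper-quartile factors, the replicate number as a block, removal of each library's GC trend (a smooth curve of span 0.5, fitted to genes averaging 100 counts or more) with and without that block, summed identifiers of a name, halved counts and each sample left out. Promoter windows came from RefSeq.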

Additional observations from a re-analysis of the deposited data

How the results depend on the processing

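The log2 fold change of JAG1 kept its sign and an unadjusted p-value under 0.05 in all 18 alternatives. It lay between −0.91 and −0.75 with each sample left out and between −0.87 and −0.83 in the other 12, and its adjusted p ran from 6.06e-07 to 0.377. It passed the adjusted threshold with DESeq2 (−0.83), with the GC trend removed (−0.86) and without MA PANC-1 2. With the GC trend removed and the replicate number as a block it did not pass (−0.87, adjusted p = 0.208 from edgeR). The count of the 10 genes past that threshold was 1 with DESeq2, 1 with the GC trend removed alone, and from 0 to 1 with samples left out. The share of all genes past it was 1.80% with DESeq2, 0.191% with the GC trend removed and 0.135% without MA PANC-1 2, against 0.0394%. Over the wider list that count was 4 with DESeq2, 2 with the GC trend removed (JAG1 and CDKN1A), and from 0 to 1 with samples left out. At an unadjusted p under 0.05, the number among the 10 genes was 2 with the replicate number as a block and from 1 to 5 with samples left out. The 5 came without MA PANC-1 3 and were JAG1, JAG2, NOTCH1, NOTCH2 and RBPJ, when 18.1% of all genes had such a p-value. The number in the wider list ran from 8 to 24 with samples left out, the highest without MA PANC-1 3. It was 20 with the GC trend removed, when 14.0% of all genes had such a p-value. DEGs in the wider list numbered 3, but 2 with halved counts, 2 with a limma pseudocount of 0.1, 1 with a limma pseudocount of 1, 1 with a minimum mean of 1 FPKM, and from 1 to 3 with samples left out. All DEGs numbered 342, but 44 with that pseudocount of 1 and 93 with that minimum. Signs turned in DLL1, NOTCH3 and HEY1 when 1 sample was left out. DLL1 ran from −0.019 (without MA PANC-1 2) to 0.257, NOTCH3 from −0.291 to 0.059 (without MA PANC-1 1) and HEY1 from −0.092 (without PANC-1 1) to 0.334. With CPM in place of FPKM, the ratio of the group means moved by less than the spread between replicates in each of the 10 genes.

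Whether the replicate numbers pair the samples is not settled. Samples of the same number had deviations correlated at 0.0555, 0.138 and 0.0665 over 11470 genes, and those of different numbers at −0.0877 to 0.0202. The values are low, although each sample correlated best with its own number. With the replicate block JAG1 was at −0.83 (adjusted p = 0.295 from edgeR), JAG2 joined it at an unadjusted p under 0.05, and no gene of all those tested passed the adjusted threshold in edgeR, while 2215 had an unadjusted p under 0.05. DLL1, HEY1 and NOTCH3, the genes of lowest level among the 10, had the widest intervals. Halving the counts left their standard errors almost the same. It keeps the relative spread between samples, so it cannot show the effect of read depth on them.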
